A study of Glycine max with 8 samples.

Results

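Beans of 5 mm length, sampled without their pods, were compared with pods holding beans of 2 mm length in soybean (Glycine max), cultivar Tamahomare. The comparison rests on 4 of the 8 arrays of the series, 2 for each stage, and they were chosen by the stage in the sample titles. No treatment and no transgene is named for any of them. The other 4 arrays, 2 of elongating pods and 2 of fully grown beans, entered the model fit and are quoted for context. The labels give neither the age of the plants nor how many plants or pods went into a sample, nor whether the replicates are different plants. The spread behind the p-values may for this reason be technical.

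A legume seed first builds its embryo and seed coat by cell division and then enters filling, when the cotyledons take up sugars and amino acids and lay down storage protein and oil. LEC1-type factors and their partners switch the embryo into this maturation programme, and WRI1 directs carbon into fatty acids. The seed coat is maternal tissue that passes nutrients to the embryo, and the pod wall around it photosynthesises and holds protein for a time. Late embryogenesis abundant proteins, which protect cells as the seed dries, usually follow the storage proteins.

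On the array, a probe set is a group of short probes against 1 transcript, and its brightness is called here the scaled signal, after each array was set to a common median of 56.8. A probe set was taken as above background on an array when it exceeded the 95th percentile of that array's probe sets for 2 soybean pathogens, which lay at 6.58 to 7.70 on the 4 arrays compared. Between 80.9% and 82.8% of soybean probe sets were above it on these arrays. Before scaling, the array medians were 50.3 and 49.7 in bean 5 mm, against 107 and 86.9 in bean 2 mm, and every difference given here is relative to the typical transcript of its array. The array holds 2 sets of actin controls, and the signal ratio of the end of the transcript over its start is a measure of RNA integrity. In one set it was 2.07 and 2.22 in bean 5 mm, against 3.64 and 3.60 in bean 2 mm. In the other set it was 35.8 and 48.1 in bean 5 mm, against 45.0 and 63.9 in bean 2 mm, and the stages overlapped. The ratio of the end over the middle of GAPDH was 1.23 and 1.31 in bean 5 mm, against 1.82 and 2.04 in bean 2 mm. The part of RNA integrity in the results was not tested. Pod tissue was part of the bean 2 mm samples alone. Stage, pod tissue and array level changed together in this comparison and cannot be told apart. Likewise, in such bulk samples fewer cells of a type and less RNA per cell cannot be told apart.

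The tissue labels were set against marker transcripts. Of 3 embryo markers (FAD2-1A, LEC1-A and WRI1B) all were above background on all 4 arrays, and their summed signal was 1656 and 2248 in bean 5 mm, against 349 and 244 in bean 2 mm. The 6 seed coat markers (ANR1, ANS2, DFR1, F3H, HPS and SCB1) summed to 17733 and 18850 in bean 5 mm, against 14205 and 16820 in bean 2 mm. Only HPS was called, with 1592 and 2204 in bean 5 mm, against 8.27 and 5.98 in bean 2 mm. HPS was also at 143 and 169 in elongating pods, and which tissue made it was not tested. The 5 pod wall markers (KTI-2, LOX7, VLXB, VLXC and VSPA) summed to 3238 and 3793 in bean 5 mm, against 4051 and 7604 in bean 2 mm. Among them VLXB was called lower in bean 5 mm. KTI-2, counted below with the protease inhibitors, was called higher, with 315 and 763 in bean 5 mm, against 49.1 and 37.8 in bean 2 mm. Elongating pods had 19005 and 18607 for the same 5 genes. Pod wall transcripts in the 2 mm samples were thus far below their level in elongating pods, and none of the 5 was below background in the beans sampled alone. The 5 photosynthetic tissue markers summed to 4632 and 5290 in bean 5 mm, against 2350 and 3093 in bean 2 mm. Most of this sum came from CAB3, which was called higher, with 3746 and 4292 in bean 5 mm, against 1600 and 2325 in bean 2 mm. RCABETA, a Rubisco activase, was called lower, with 111 and 113 in bean 5 mm, against 149 and 184 in bean 2 mm. Its call was lost without any 1 of these 4 arrays. The 4 flower organ markers summed to 1622 and 1541 in bean 5 mm, against 2042 and 2133 in bean 2 mm.

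Of the gene lists, 5 of 7 protease inhibitors, 4 of 6 embryo regulators and 14 of 28 late embryogenesis and seed maturation genes rose between these stages, while the cytokinin oxidase CKX3, the inositol phosphate synthase MIPS4, the auxin response gene AUX22 and the allene oxide cyclases AOC3 and AOC4 fell. Over the whole table, 6334 of 33625 tested soybean probe sets (18.8%) were called, meaning that the adjusted p of limma was below 0.05 after Benjamini-Hochberg adjustment over all of them. Of these, 3056 (9.09% of those tested) were higher in bean 5 mm and 3278 (9.75%) lower. A change of at least 2-fold was called for 1541 probe sets (4.58%), 1006 of them higher (2.99%) and 535 lower (1.59%). The larger changes were thus mostly rises. Fold changes are on the scale log2(scaled signal + 16), which understates the change of dim transcripts. The "at least" folds of single genes are instead scaled signal over background, without the 16. They cannot be ranked beside the other folds.

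**Figure D1:**
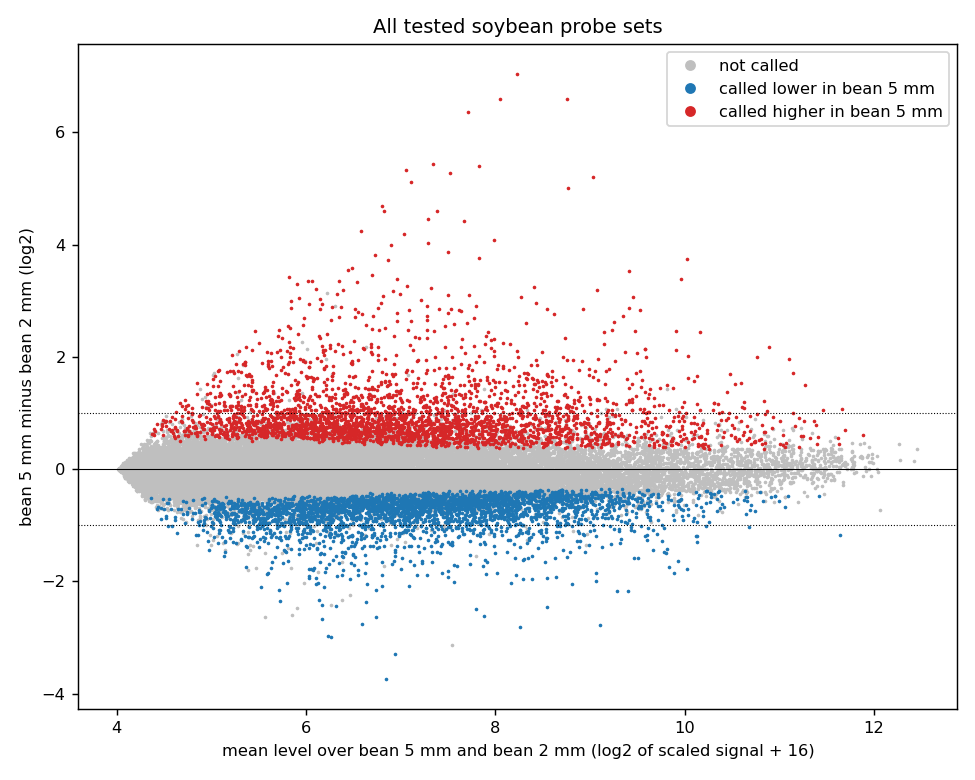
Difference between bean 5 mm and bean 2 mm (log2, vertical axis) against the mean level of both stages (log2 of scaled signal + 16, horizontal axis) for the 33625 tested soybean probe sets. Red and blue points are the 3056 called higher and 3278 called lower in bean 5 mm, and dotted lines mark a 2-fold change, beyond which there were 1006 called rises and 535 called falls.

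The number of calls depended on single arrays. Leaving out bean 5 mm replicate 1 gave 2591 calls and leaving out replicate 2 gave 1246. Leaving out bean 2 mm replicate 1 gave 2681 calls and replicate 2 gave 1642. Of the other arrays, each elongating pod array left out gave 3849 or 3862, and each fully grown array 11518 or 11509. The fully grown replicates differed more than those of the other stages. Symbols could be given to 953 of the 5814 tested genes, and 240 of these 953 were called (25.2%). For all 5814 genes the share was 19.8%, with 8.58% higher and 11.3% lower. At least 2-fold changes were called for 5.9% of them, 3.78% higher and 2.12% lower, and the median difference was -0.11 (log2). The counts of gene groups below stand beside these shares. The members of each group were found by symbol, so the groups are incomplete. Without the scaling of arrays the median difference over all probe sets was -0.76, against -0.06 with it, and the balance of several groups turned. For the values as deposited 2 genes of fatty acid and oil synthesis were called higher and 8 lower, and of sugar transport 1 and 5. The counts were 4 and 8 for isoflavone, flavonol and chalcone enzymes and 2 and 9 for the GASA peptides. For proanthocyanidin and anthocyanin synthesis they were 0 and 6. Some probe sets are of a type that may match more than 1 transcript, among the genes below those of KTI3, KTI-2, CG-BETA-1, GY2, P34, P89, PM12, PM16, FAD2-3, FAD7-2, FAD8.2, LOX3, LOXB1, VLXB, VSPA, MIPS, MIPS4, SUT1, SBP2, IF7MaT, IFS1, CYP76O2, AAT, PSK3, PAP25, ADR11 and DREB1. Without such probe sets 3 protease inhibitors rose, and of the lipoxygenases 1 rose and none fell.

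Regulators of embryo maturation were higher in bean 5 mm. Of 6 measured, 4 rose and none fell, and the median difference was 1.43. LEC1-A, a subunit of the NF-Y factor that drives embryo maturation, was at 799 and 850.0 in bean 5 mm, against 249 and 162 in bean 2 mm. Its log2 difference was 1.95 ± 0.19 SE, adjusted p = 0.000552. MFT, a relative of the flowering regulator FT that acts in seed dormancy in Arabidopsis, had 919.9 and 1454 in bean 5 mm and 372 and 229 in bean 2 mm. All 4 arrays of both genes kept the stages apart, and the log2 difference of MFT was 1.93 ± 0.26 SE, adjusted p = 0.00257. WRI1B, a factor for oil synthesis genes, was at 169 and 209 in bean 5 mm, against 72.5 and 55.1 in bean 2 mm, a log2 difference of 1.36 ± 0.20 SE, adjusted p = 0.00323. NF-YA13, another NF-Y subunit, was at 85.3 and 133 in bean 5 mm, against 34.3 and 21.7 in bean 2 mm (log2 difference 1.50 ± 0.21 SE, adjusted p = 0.00312).

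The regulators did not share a later course. LEC1-A was at 0.287 and 2.92 in elongating pods, not above background, and at 218 and 238 in fully grown beans, below its level in bean 5 mm. MFT went on to 6586 and 4921 in fully grown beans, and NF-YA13 to 871 and 733. The remaining members, NF-YA05 and DOF6, were not called. NF-YA05 had 271 and 270.0 in bean 5 mm and 257 and 169 in bean 2 mm, and DOF6 had 42.9 and 31.4 in bean 5 mm and 47.2 and 45.8 in bean 2 mm. The 4 rises were called without each single array in turn.

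Protease inhibitors, abundant defence proteins of the soybean seed, had the largest median rise of the 35 gene lists. The 3 other seed proteins came close, with 2.91. That order held on bean 5 mm replicate 1 (1.81 against 0.975) but not on replicate 2 (3.72 against 4.11). Of 7 inhibitors measured, 5 rose and none fell, with a median difference of 2.99. In each of the 7 both bean 5 mm arrays were above both bean 2 mm arrays. The arrays of the stages did not overlap, in either direction, for 71.4% of all genes and 69.5% of all probe sets. KTI3, the main Kunitz trypsin inhibitor of the seed, was at 2589 and 3726 in bean 5 mm, against 90.0 and 51.6 in bean 2 mm. It was 36.9-fold higher in bean 5 mm (log2 difference 5.20 ± 0.22 SE, adjusted p = 2.15e-05). D-II, a Bowman-Birk inhibitor, was at 141 and 1239 in bean 5 mm, against 0.870 and 3.73 in bean 2 mm, where neither array was above background. Its rise was at least 60.2-fold over background. On the scale of the limma fit it was 24.3-fold (log2 difference 4.61 ± 0.72 SE, adjusted p = 0.00447), less than that of KTI3.

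The rise of other inhibitors was uneven between the bean 5 mm arrays. KTI1, a Kunitz inhibitor, had 44.9 and 299 in bean 5 mm and 2.09 and 0.761, not above background, in bean 2 mm. It was at least 16.7-fold higher over background (log2 difference 2.99 ± 0.58 SE, adjusted p = 0.0102). Its call was lost without bean 2 mm replicate 1 or 2, with adjusted p = 0.0505 and 0.0692. KTI-2 was at 315 and 763 in bean 5 mm, against 49.1 and 37.8 in bean 2 mm (log2 difference 3.10 ± 0.32 SE, adjusted p = 0.000735), and in elongating pods it was already at 2668 and 2578. The Bowman-Birk inhibitor BBI was not called, with 8.96 and 62.0 in bean 5 mm and 3.65 and 0.563 in bean 2 mm (adjusted p = 0.0605). The number called higher was 6 with bean 5 mm replicate 1 left out and 4 with replicate 2 left out, and 4 with bean 2 mm replicate 1 left out and 3 with replicate 2 left out.

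Storage globulins, the bulk protein of the mature seed, were not yet called. None of 9 measured glycinin, conglycinin and basic globulin genes passed the limma test in either direction, while 4 had an unadjusted p below 0.05, 3 of them higher. Of the 9, 6 were not above background on either bean 2 mm array. The glycinin GY1 had 15.7 and 632 in bean 5 mm and 0.204 and 0.413 in bean 2 mm. Both bean 5 mm arrays were thus above background and both bean 2 mm arrays below it, but replicate 2 was far above replicate 1, and the adjusted p was 0.067. GY2, another glycinin, had 11.6 and 333 in bean 5 mm and 3.70 and 5.49 in bean 2 mm (adjusted p = 0.105). The beta-conglycinin CG-BETA-1 was at 3.93 and 12.2 in bean 5 mm, against 4.20 and 1.86 in bean 2 mm, and only bean 5 mm replicate 2 was above background. In fully grown beans GY1 reached 18269 and 20567 and CG-BETA-1 18508 and 19027. With arrays scaled to the hybridization controls 3 globulins were called higher, and for the values as deposited 3 were called higher and 1 lower. Without bean 5 mm replicate 1, 3 globulins were called higher, and without replicate 2, 1 was.

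Of the 3 other seed proteins measured, 1 rose. GM2S-1, a seed albumin, had 93.7 and 266 in bean 5 mm and 0.395 and 0.317 in bean 2 mm, where it was not above background. It was at least 22.7-fold higher over background (log2 difference 3.43 ± 0.34 SE, adjusted p = 0.000609, limma). P34, a thiol-protease-like seed allergen, was at 23.5 and 564 in bean 5 mm, against 4.30 and 3.86 in bean 2 mm, and was not called (adjusted p = 0.0593). SBP2, a sucrose-binding protein, was at 9.01 and 32.2 in bean 5 mm, against 3.40 and 7.76 in bean 2 mm (adjusted p = 0.108). All 3 were called higher without bean 5 mm replicate 1, and 2 of them without replicate 2.

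**Figure D2:**
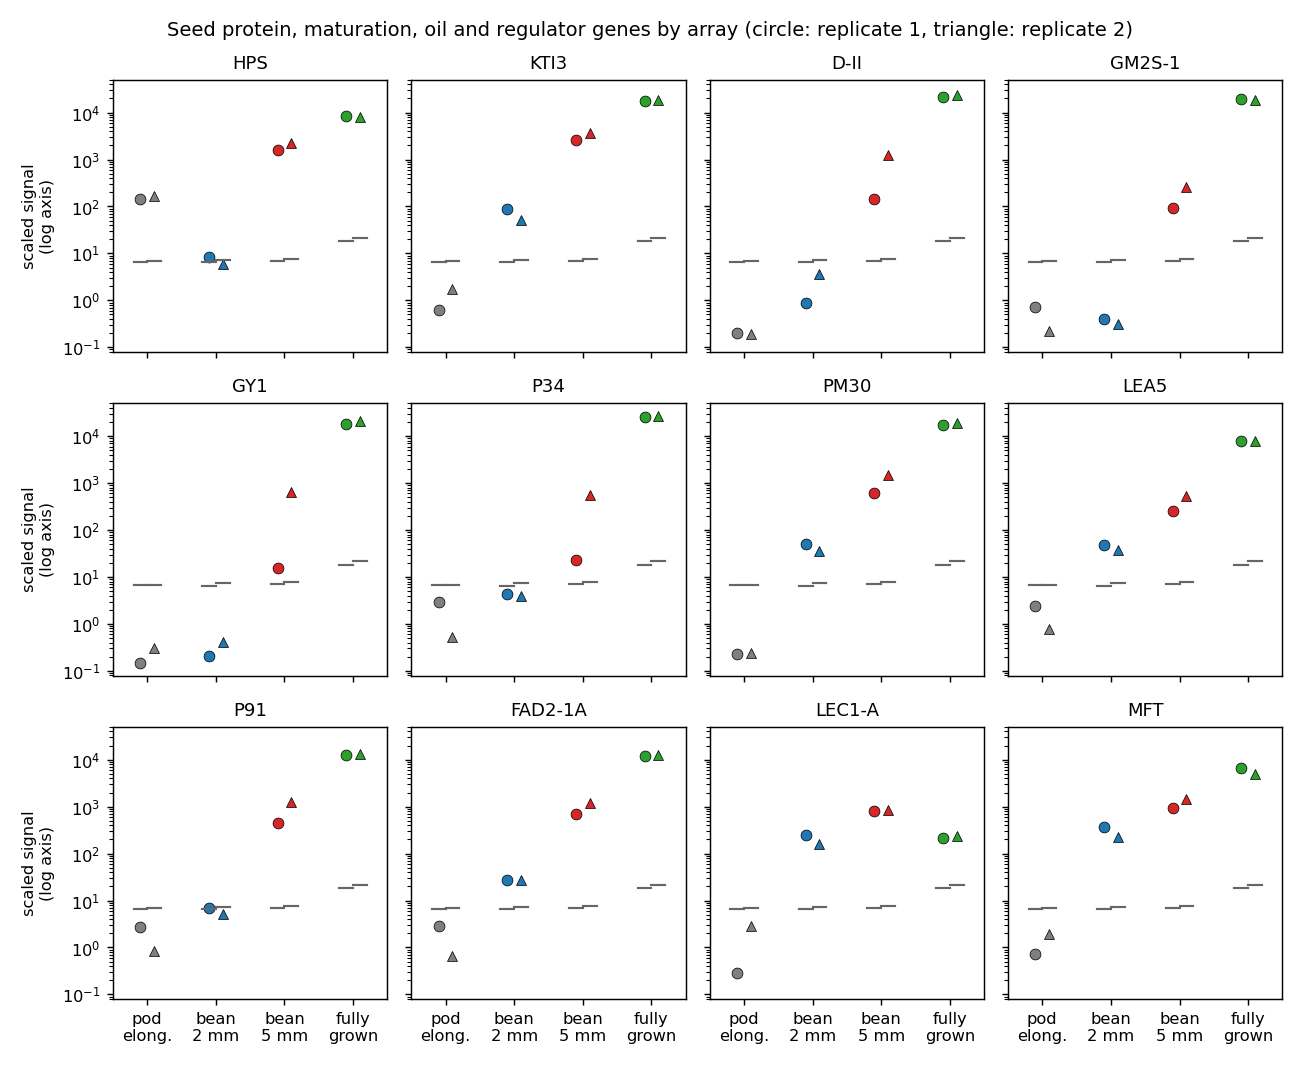
Scaled signal (log axis) of 12 seed genes on each of the 8 arrays, by stage, with circles for replicate 1 and triangles for replicate 2. Short grey lines mark the background of each array. GY1 and P34 are far apart between the bean 5 mm arrays (15.7 and 632, and 23.5 and 564), while HPS, KTI3 and LEC1-A are close together there.

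The bean 5 mm arrays differed from each other in these transcripts. Over all tested probe sets their median absolute log2 difference was 0.136, close to the 0.139 of bean 2 mm. Replicate 2 was at least 4-fold above replicate 1 for 24 probe sets, and for none was it 4-fold below. All 24 were at least 2-fold higher in fully grown beans than in bean 2 mm, as were 13.9% of all tested probe sets. Of the 80 probe sets at least 2-fold higher in replicate 1, 52 (65.0%) were at least 2-fold lower in fully grown beans than in bean 2 mm, against 11.2% of all. Of the 953 genes with a symbol, 50 belonged to the storage globulins, inhibitors, other seed proteins, maturation proteins or seed lipoxygenases. At least 2-fold higher in replicate 2 were 21 of the 953, and 17 of these 21 belonged to those groups. The seed lipoxygenases LOX1.1, LOX2 and LOX3 were taken from the lipoxygenase list for this count, and all were among the 21. That these replicates differ in seed proteins was known beforehand, so the count describes the difference and does not test it. Levels in fully grown beans were 1000 or more for 19 of the 21, against 17.7% of the 953. The 6 genes at least 2-fold higher in replicate 1 were all higher in elongating pods than in bean 5 mm, as were 48.0% of the 953.

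**Figure D3:**
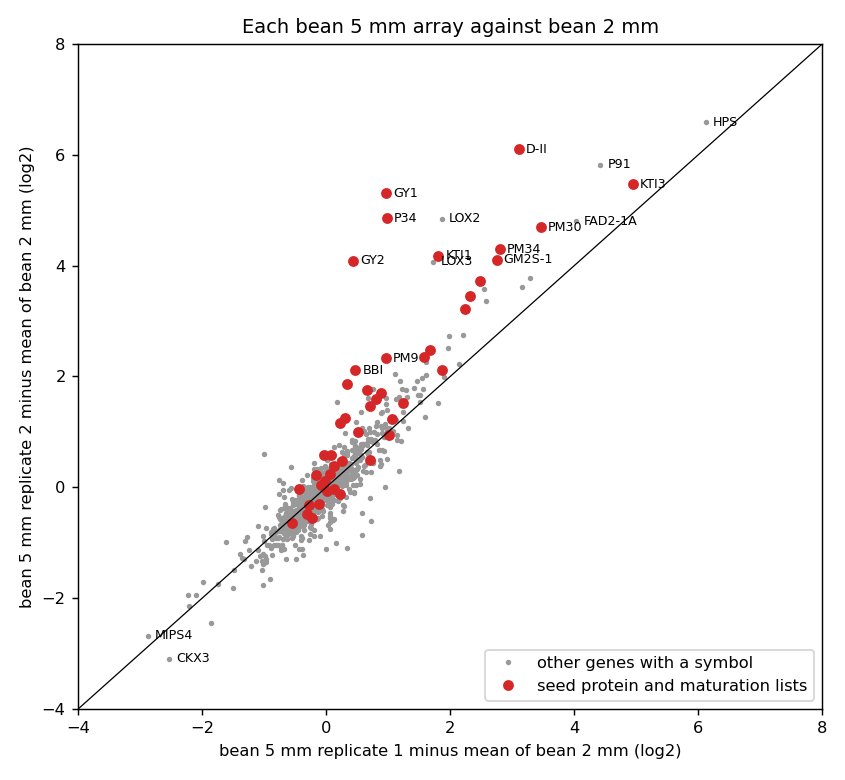
Log2 difference of each bean 5 mm array from the mean of bean 2 mm (replicate 1 on the horizontal axis, replicate 2 on the vertical axis) for 953 genes with a symbol, with seed protein and maturation genes in red and the line of equal difference. GY1, GY2, P34, LOX2, LOX3 and D-II lie far above the line, so their rise was larger on replicate 2.

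Of the 15 largest rises, 2 were of oleosins, proteins that coat the oil bodies, for which no list was made. P91 had 457 and 1236 in bean 5 mm and 7.03 and 5.22 in bean 2 mm (log2 difference 5.12 ± 0.35 SE, adjusted p = 0.000163). P89, another oleosin, was at 1922 and 2708 in bean 5 mm, against 199 and 166 in bean 2 mm (log2 difference 3.54 ± 0.18 SE, adjusted p = 5.22e-05), and all 3 of its probe sets were called higher. FAD2-1A, the seed oleate desaturase, was at 688 and 1189 in bean 5 mm, against 27.0 and 27.3 in bean 2 mm. It was 21.3-fold higher (log2 difference 4.42 ± 0.22 SE, adjusted p = 4.51e-05), and its second probe set rose by 4.45. Elongating pods had 2.80 and 0.662, not above background.

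Of 16 genes of fatty acid and oil synthesis, 6 rose and none fell, with a median of 0.24. SACPD-C, a stearoyl desaturase, had 1817 and 2115 in bean 5 mm and 717 and 517 in bean 2 mm (log2 difference 1.66 ± 0.32 SE, adjusted p = 0.0101), and lost its call without replicate 2 of either stage (adjusted p = 0.0879 and 0.083). The other 4 were subunits of the plastid acetyl-CoA carboxylase, which makes the first building block of fatty acids, and they rose by 0.57 to 0.85 on the log2 scale. ACCB-1, its biotin carrier, was at 232 and 245 in bean 5 mm, against 132 and 132 in bean 2 mm (log2 difference 0.78 ± 0.13 SE, adjusted p = 0.00636), but for the values as deposited these 4 differences turned negative. The desaturases FAD2-2, FAD2-3, FAD3B, FAD3C, FAD6.1, FAD7-2 and FAD8.2 were not called, and their differences ran from -1.05 for FAD7-2 to 0.64 for FAD3C. The number of members called higher was 4 with bean 5 mm replicate 1 left out and 1 with replicate 2 left out, and 4 with bean 2 mm replicate 1 left out and 1 with replicate 2 left out. Without pod elongation replicate 1 or 2 it was 3.

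Late embryogenesis abundant and seed maturation proteins were divided. Of 28 measured, 14 rose and 1, LEA-2, fell, and the median difference was 1.03. PM30 was at 629 and 1508 in bean 5 mm, against 49.7 and 36.6 in bean 2 mm (log2 difference 4.08 ± 0.32 SE, adjusted p = 0.000285). PM34 was at 150.1 and 455 in bean 5 mm, against 9.97 and 5.94 in bean 2 mm (log2 difference 3.55 ± 0.39 SE, adjusted p = 0.000883), with 1 bean 2 mm array above background. LEA5 was at 259 and 528 in bean 5 mm, against 48.5 and 36.9 in bean 2 mm (log2 difference 2.73 ± 0.27 SE, adjusted p = 0.000581). PM12, PM16 and PM40 rose by 2.88, 2.08 and 2.00.

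Others of this group were at or near background. PGMPM19 had 4.25 and 2.15 in bean 5 mm and 0.560 and 4.67 in bean 2 mm, none above background, and reached 17467 and 17139.8 in fully grown beans. PM31 had 5.38 and 1.09, not above background, in bean 5 mm and 8.21 and 9.89 in bean 2 mm, just above it, and later reached 15533 and 15336. In all, 6 of the 28 were below background on both bean 5 mm arrays and 10 on both bean 2 mm arrays. PM37 was bright throughout, with 2331 and 2473 in bean 5 mm and 2425 and 2412 in bean 2 mm (adjusted p = 0.968). LEA-2 was at 264 and 247 in bean 5 mm, against 382 and 406 in bean 2 mm (log2 difference -0.60 ± 0.16 SE, adjusted p = 0.034). Leaving out any 1 of the 4 arrays compared, or of the 2 from elongating pods, ended its call. The number called higher was 14 with bean 5 mm replicate 1 left out and 9 with replicate 2 left out, and 8 with bean 2 mm replicate 1 left out and 9 with replicate 2 left out.

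The lipoxygenases, which oxidise unsaturated fatty acids, moved in opposite directions. Of 9 measured, 2 rose and 2 fell. The seed form LOX2 was at 44.4 and 463 in bean 5 mm, against 0.825 and 0.453 in bean 2 mm, not above background there. It was at least 20.6-fold higher over background (log2 difference 3.35 ± 0.72 SE, adjusted p = 0.0153). LOX3, also a seed form, had 64.5 and 393 in bean 5 mm and 8.22 and 8.53 in bean 2 mm (log2 difference 2.90 ± 0.57 SE, adjusted p = 0.011), and its second probe set was not called (adjusted p = 0.106). The vegetative form VLXB was at 249 and 264 in bean 5 mm, against 683 and 2161 in bean 2 mm (log2 difference -2.18 ± 0.40 SE, adjusted p = 0.00875), and at 4856 and 4680.0 in elongating pods. LOXB1 had 43.2 and 56.5 in bean 5 mm and 232 and 295 in bean 2 mm (log2 difference -2.08 ± 0.38 SE, adjusted p = 0.00786), and its 3 dimmer probe sets were not called. The seed forms lost their call without bean 2 mm replicate 1 or 2 (adjusted p = 0.0707 and 0.0866 for LOX2, 0.0571 and 0.0691 for LOX3). VLXB lost it without bean 5 mm replicate 1 or 2 (adjusted p = 0.0524 and 0.066). LOXB1 lost it without the same arrays (adjusted p = 0.0538 and 0.0519) and without bean 2 mm replicate 2 (adjusted p = 0.0657).

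HPS, a small hydrophobic protein that coats the soybean seed surface, had the largest rise of the 953 genes with a symbol. It was at 1592 and 2204 in bean 5 mm, against 8.27 and 5.98 in bean 2 mm, where 1 array was above background. The log2 difference was 6.35 ± 0.16 SE, adjusted p = 1.15e-06, which is 81.8-fold. Elongating pods had 143 and 169, so its level was lowest in bean 2 mm among the 4 stages. Which tissue made the HPS transcript was not tested. The other 3 genes measured of the seed coat list were bright on all 4 arrays and were not called. SCB1, a seed coat protein with a BURP domain, had 5535 and 5943 in bean 5 mm and 4708 and 5708 in bean 2 mm (adjusted p = 0.742). The peroxidases PRX2 and Ep had differences of 0.21 and 0.52 (adjusted p = 0.325 and 0.213).

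Enzymes of proanthocyanidin and anthocyanin synthesis were not called apart from 1 of 7. Proanthocyanidins are the tannins of the seed coat. ANR1, anthocyanidin reductase, was at 2476 and 2329 in bean 5 mm, against 2587 and 3051 in bean 2 mm (adjusted p = 0.454). DFR1, dihydroflavonol reductase, had 2695 and 2687 in bean 5 mm and 2402 and 2767 in bean 2 mm, and ANS2, anthocyanidin synthase, had 2346 and 2171 in bean 5 mm and 1942 and 2105 in bean 2 mm. The arrays of the 2 stages overlapped for DFR1, while both bean 5 mm arrays of ANR1 were below both bean 2 mm arrays. UGT78K1, an anthocyanidin glucosyltransferase, rose, with 58.2 and 71.1 in bean 5 mm and 26.4 and 22.5 in bean 2 mm (log2 difference 0.99 ± 0.19 SE, adjusted p = 0.00902), but with 0.34 and no call for the values as deposited. The call of UGT78K1 was also lost without replicate 2 of bean 5 mm (adjusted p = 0.0869) or of bean 2 mm (adjusted p = 0.0699).

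Among 20 isoflavone, flavonol and chalcone enzymes, 7 rose and 1 fell. IF7MaT, which attaches malonate to isoflavone glucosides, had 241 and 332 in bean 5 mm and 82.2 and 63.5 in bean 2 mm (log2 difference 1.76 ± 0.18 SE, adjusted p = 0.000713), and all 3 of its probe sets were called higher. FLS1, flavonol synthase, had 39.1 and 40.4 in bean 5 mm and 11.4 and 12.7 in bean 2 mm (log2 difference 0.99 ± 0.13 SE, adjusted p = 0.00235), far below the 464 and 423 of elongating pods, and its dimmer probe set was not called (adjusted p = 0.059). HIDH, the dehydratase of isoflavone synthesis, fell to 239 and 181 in bean 5 mm, against 473 and 499 in bean 2 mm (log2 difference -1.16 ± 0.16 SE, adjusted p = 0.00234), and its 2 dimmer probe sets were not called. IFS1, isoflavone synthase, was dim, at 24.4 and 53.6 in bean 5 mm, against 10.1 and 7.21 in bean 2 mm, and its call (adjusted p = 0.0152) was lost without bean 5 mm replicate 2 (adjusted p = 0.0919) or bean 2 mm replicate 1 or 2 (adjusted p = 0.0556 and 0.0977). The number called higher was 4 with bean 5 mm replicate 1 left out and 2 with replicate 2 left out, and 3 with bean 2 mm replicate 1 left out and 3 with replicate 2 left out.

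Of 10 genes of sugar transport and sucrose cleavage, 3 rose and none fell. SWEET24, a sugar exporter, was at 2813 and 2728 in bean 5 mm, against 1211 and 1157 in bean 2 mm (log2 difference 1.22 ± 0.14 SE, adjusted p = 0.000999), but with a difference of 0.28 and no call for the values as deposited. SWEET31 was dimmer, at 73.7 and 100.4 in bean 5 mm, against 14.5 and 21.5 in bean 2 mm (log2 difference 1.60 ± 0.19 SE, adjusted p = 0.00123). SS, sucrose synthase, rose by 0.45 on its brightest probe set and by 1.09 and 2.23 on the 2 dimmer ones, and the difference on the brightest one was negative for the values as deposited. Its call on the brightest probe set (adjusted p = 0.0488) was lost without any 1 array of the first 3 stages. The sucrose carrier SUT1 was not called, with 44.7 and 64.4 in bean 5 mm and 21.6 and 38.8 in bean 2 mm (adjusted p = 0.0907).

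Of 18 genes of nitrogen and amino acid metabolism and phosphoenolpyruvate carboxylase, 3 rose and 3 fell. GS1-GAMMA, a cytosolic glutamine synthetase, was at 986 and 1358 in bean 5 mm, against 388 and 398 in bean 2 mm (log2 difference 1.52 ± 0.16 SE, adjusted p = 0.000726). Its relative GS1GAMMA2 fell to 582 and 597 in bean 5 mm, against 918 and 1529 in bean 2 mm (log2 difference -0.99 ± 0.22 SE, adjusted p = 0.0161). The opposed change of these isoforms was called on separate probe sets, but that of GS1GAMMA2 was lost without bean 5 mm replicate 1 or 2 (adjusted p = 0.0819 and 0.1) or bean 2 mm replicate 2 (adjusted p = 0.0829). AAT, aspartate aminotransferase, had 385 and 378 in bean 5 mm and 197 and 172 in bean 2 mm (log2 difference 0.99 ± 0.12 SE, adjusted p = 0.00148). For the values as deposited AAT had a difference of 0.10 and was not called. The number of members called lower was 1 with bean 5 mm replicate 1 left out and 0 with replicate 2 left out, and 2 with bean 2 mm replicate 1 left out and 0 with replicate 2 left out. PPCK2, a kinase of phosphoenolpyruvate carboxylase, was at 78.1 and 164 in bean 5 mm, against 31.7 and 23.6 in bean 2 mm (log2 difference 1.58 ± 0.28 SE, adjusted p = 0.0076), and its call was lost without bean 2 mm replicate 2 (adjusted p = 0.0642).

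The largest fall among genes with a symbol was of a hormone gene. CKX3, a cytokinin oxidase that breaks cytokinin down, was at 123 and 78.6 in bean 5 mm, against 715 and 876 in bean 2 mm. It was 7.03-fold lower (log2 difference -2.81 ± 0.19 SE, adjusted p = 0.000163). Both bean 2 mm arrays were above the 389 and 403 of elongating pods, so the level was highest in bean 2 mm among the 4 stages. AUX22, an Aux/IAA protein induced early by auxin, had 119 and 135 in bean 5 mm and 549 and 580.1 in bean 2 mm (log2 difference -2.02 ± 0.15 SE, adjusted p = 0.000213). Within their groups, CKX3 was the 1 gene called of 7 cytokinin and gibberellin genes. AUX22 was the 1 called lower of 8 auxin genes, of which ADR11, an auxin down-regulated gene, was called higher, with 1807 and 1994 in bean 5 mm and 888 and 984 in bean 2 mm (log2 difference 1.01 ± 0.14 SE, adjusted p = 0.00241), but with 0.07 and no call for the values as deposited.

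Jasmonate synthesis genes were lower. Of 5 allene oxide synthases and cyclases, 4 fell and none rose, with a median of -0.79. AOC3, an allene oxide cyclase, had 577 and 511 in bean 5 mm and 1157 and 1309 in bean 2 mm (log2 difference -1.16 ± 0.20 SE, adjusted p = 0.00614). AOC4 had 543 and 422 in bean 5 mm and 865 and 959 in bean 2 mm (log2 difference -0.91 ± 0.15 SE, adjusted p = 0.00612). The calls were unstable, since the number of members lower was 2 with bean 5 mm replicate 1 left out and 0 with replicate 2 left out, and 4 with bean 2 mm replicate 1 left out and 0 with replicate 2 left out. CYP74A1, by its family also an allene oxide synthase, fell to 27.2 and 40.7 in bean 5 mm, against 79.5 and 99.8 in bean 2 mm (log2 difference -1.09 ± 0.17 SE, adjusted p = 0.00486), and was called without each single array. Of 13 abscisic acid and ethylene genes, 1 rose: DREB1, a dehydration-responsive factor, was at 397 and 320.4 in bean 5 mm, against 107 and 97.6 in bean 2 mm (log2 difference 1.66 ± 0.14 SE, adjusted p = 0.00032).

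The GASA peptides, small cysteine-rich proteins responsive to gibberellin, went both ways. Of 16, 4 rose and 1 fell. GASA12 had 195 and 289 in bean 5 mm and 38.4 and 22.1 in bean 2 mm (log2 difference 2.48 ± 0.21 SE, adjusted p = 0.000366), and it reached 8636 and 8206 in fully grown beans. GASA4 had 227 and 390.2 in bean 5 mm and 58.4 and 34.9 in bean 2 mm (log2 difference 2.35 ± 0.30 SE, adjusted p = 0.00194). GASA6 fell to 6.79 and 11.8 in bean 5 mm, against 56.5 and 97.0 in bean 2 mm (log2 difference -1.85 ± 0.26 SE, adjusted p = 0.00271), and was at 440.2 and 504 in elongating pods. The number called higher was 3 with bean 5 mm replicate 1 left out and 2 with replicate 2 left out, and 2 with bean 2 mm replicate 1 left out and 3 with replicate 2 left out.

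MIPS4, an inositol phosphate synthase that starts inositol and phytate synthesis, was the second largest fall. It was at 179 and 209 in bean 5 mm, against 1472 and 1381 in bean 2 mm (log2 difference -2.78 ± 0.23 SE, adjusted p = 0.000311). MIPS, a second gene of this enzyme, was bright and higher, at 2657 and 3237 in bean 5 mm, against 1859 and 2010.4 in bean 2 mm (log2 difference 0.60 ± 0.13 SE, adjusted p = 0.0178), though lower for the values as deposited. The call of MIPS was lost without bean 5 mm replicate 2 (adjusted p = 0.153) or bean 2 mm replicate 1 or 2 (adjusted p = 0.107 and 0.0784). The remaining 7 genes of inositol and galactinol synthesis were not called.

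**Figure D4:**
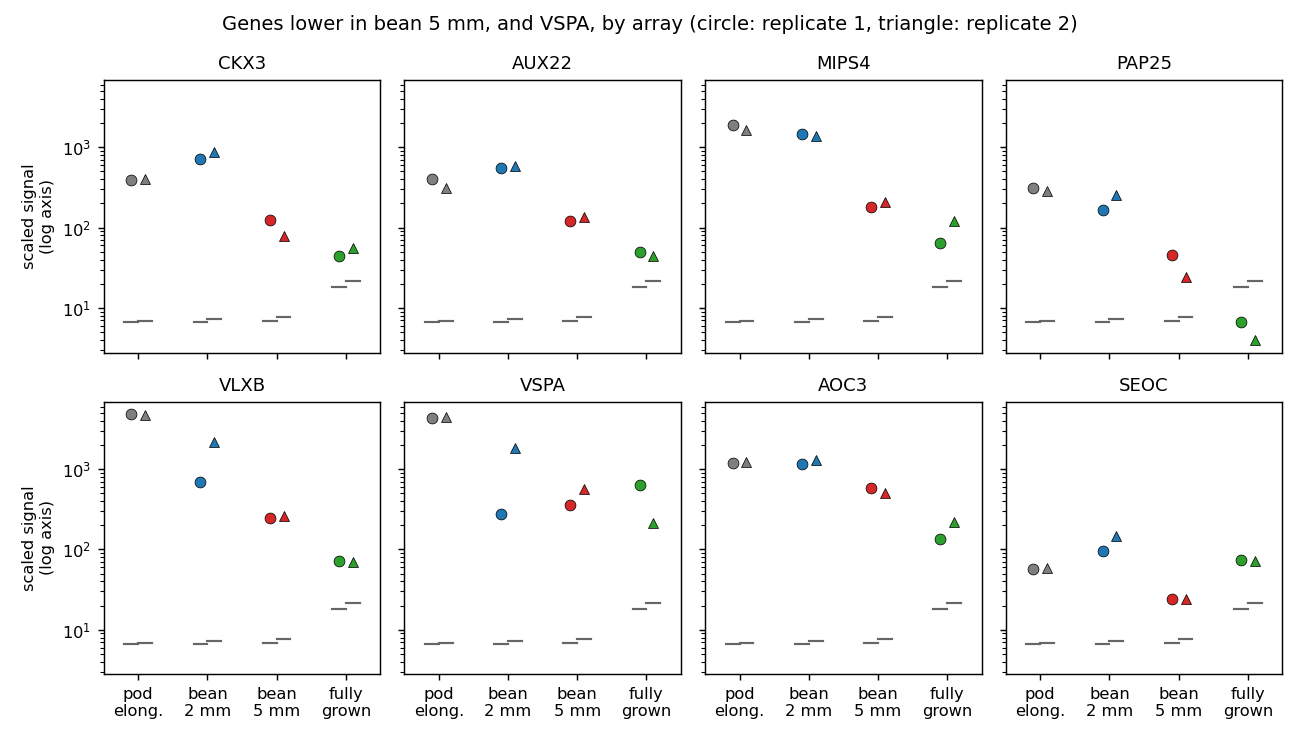
Scaled signal (log axis) of 7 genes called lower in bean 5 mm, and of VSPA, which was not called, on each of the 8 arrays by stage, with circles for replicate 1 and triangles for replicate 2. Short grey lines mark the background of each array. The bean 5 mm arrays of CKX3, AUX22 and MIPS4 lie below both bean 2 mm arrays, and VLXB and VSPA differ between the bean 2 mm arrays (683 and 2161, and 279 and 1827).

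The 15 largest falls also held genes of several roles. SEOC, a sieve element occlusion protein of the phloem, had 23.9 and 23.9 in bean 5 mm and 95.1 and 147 in bean 2 mm (log2 difference -1.75 ± 0.19 SE, adjusted p = 0.000825). PAP25, a purple acid phosphatase, had 45.2 and 24.5 in bean 5 mm and 168 and 253 in bean 2 mm (log2 difference -2.16 ± 0.24 SE, adjusted p = 0.000918), with all 3 of its probe sets called lower. PSK3, a precursor of the growth peptide phytosulfokine, had 419 and 358 in bean 5 mm and 1033 and 947 in bean 2 mm (log2 difference -1.32 ± 0.13 SE, adjusted p = 0.000596). XTH1, a xyloglucan transglucosylase of the cell wall, had 356 and 204 in bean 5 mm and 646 and 838 in bean 2 mm (log2 difference -1.39 ± 0.23 SE, adjusted p = 0.00525), and lost its call without bean 2 mm replicate 2 (adjusted p = 0.0531). It was 1 of 3 called lower among 15 cytoskeleton and cell wall genes, none of which was called higher. The number called lower was 2 with bean 5 mm replicate 1 left out and 1 with replicate 2 left out, and 1 with bean 2 mm replicate 1 left out and 0 with replicate 2 left out. Without pod elongation replicate 1 or 2 it was 1. ASP1 was at 518 and 514 in bean 5 mm, against 1470.5 and 1504 in bean 2 mm, and SPK-1 at 27.9 and 29.0 in bean 5 mm, against 77.6 and 113 in bean 2 mm (adjusted p = 0.00026 and 0.00172). NARK, a receptor kinase known for limiting nodule number, had 9.68 and 13.5 in bean 5 mm and 29.8 and 84.3 in bean 2 mm (log2 difference -1.30 ± 0.31 SE, adjusted p = 0.0227), and its call ended when either bean 5 mm array was left out (adjusted p = 0.113 and 0.106), and also without bean 2 mm replicate 2 (adjusted p = 0.0877) or either array of elongating pods. SEO-F3, a relative of SEOC, had 95.6 and 102 in bean 5 mm and 217 and 338 in bean 2 mm (log2 difference -1.32 ± 0.23 SE, adjusted p = 0.00657), and lost its call without replicate 2 of either stage (adjusted p = 0.0536 and 0.0538).

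The bZIP and WRKY transcription factors had more calls lower than higher, as did all genes (11.3% lower and 8.58% higher). Of 56 bZIP factors, 4 rose and 17 fell (30.4% lower, against 11.3% of all genes), with a median of -0.33. BZIP50 fell to 39.6 and 28.8 in bean 5 mm, against 149.9 and 135 in bean 2 mm (log2 difference -1.67 ± 0.18 SE, adjusted p = 0.000954), on both of its probe sets. BZIP132 rose, with 124 and 202 in bean 5 mm and 50.4 and 61.3 in bean 2 mm (log2 difference 1.29 ± 0.21 SE, adjusted p = 0.00497), and reached 2126 and 2572 in fully grown beans. Of 47 WRKY factors, 1 rose and 10 fell, with a median of -0.40. WRKY22 had 486 and 413 in bean 5 mm and 885 and 851 in bean 2 mm (log2 difference -0.93 ± 0.14 SE, adjusted p = 0.00378), and 2 of its 5 probe sets were called lower.

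Most of these falls were under 2-fold, with 1 bZIP and 1 WRKY gene at least 2-fold lower. The number of falls depended on the arrays and on the probe sets used. Averaged over every probe set of a gene, 11 bZIP and 4 WRKY genes were called lower. The number of bZIP genes called lower was 7 with bean 5 mm replicate 1 left out and 3 with replicate 2 left out, and 6 with bean 2 mm replicate 1 left out and 5 with replicate 2 left out. The number of WRKY genes called lower was 5 with bean 5 mm replicate 1 left out and 1 with replicate 2 left out, and 7 with bean 2 mm replicate 1 left out and 1 with replicate 2 left out. Of 57 MYB factors, 5 rose and 4 fell, with 1 to 3 called higher and 2 to 3 lower when 1 compared array was left out. MYB68 was higher, at 114 and 129.9 in bean 5 mm, against 53.2 and 53.6 in bean 2 mm (log2 difference 0.99 ± 0.14 SE, adjusted p = 0.00286), but with 0.21 and no call for the values as deposited. MYB134 was lower, at 87.4 and 73.6 in bean 5 mm, against 179 and 172 in bean 2 mm (log2 difference -0.99 ± 0.15 SE, adjusted p = 0.0035). Of 15 NAC factors, none rose and 2 fell (13.3%, close to the 11.3% of all genes), NAC34 with a log2 difference of -1.13 and NAC12 with -0.77. NAC34 lost its call without bean 5 mm replicate 2 (adjusted p = 0.0713), and NAC12 without any 1 of the 4 arrays compared. Of 7 floral MADS-box genes 3 fell, with log2 differences from -0.74 to -0.40, and with 1 compared array left out the number was 0 to 2.

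**Figure D5:**
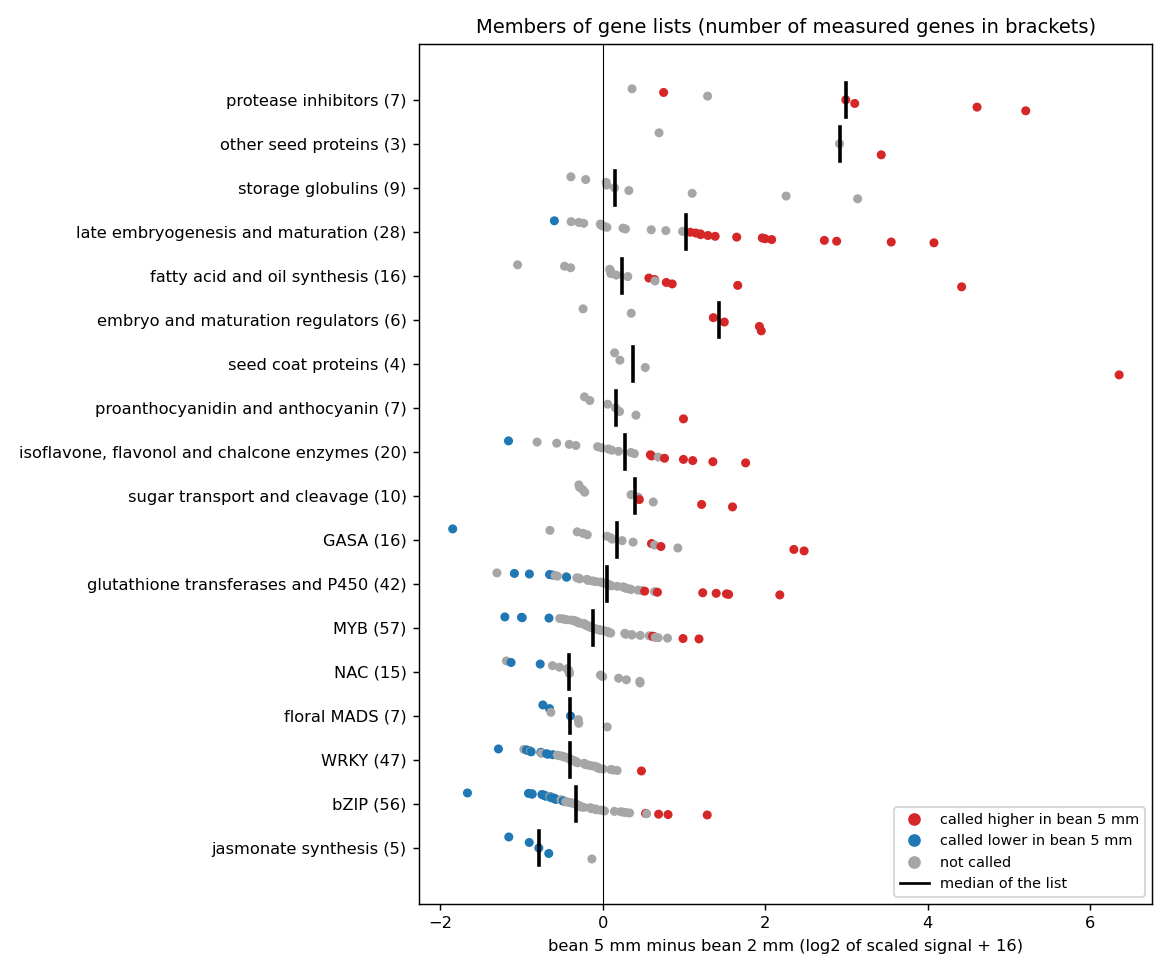
Log2 difference between bean 5 mm and bean 2 mm for the measured members of 18 gene lists, 1 point per gene, with the median of each list as a bar. Red and blue points are genes called higher and lower in bean 5 mm. Protease inhibitors and embryo regulators lie mostly to the right of 0, and jasmonate synthesis genes to the left.

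The bean 2 mm arrays also differed from each other, in pod transcripts. Replicate 2 was at least 2-fold above replicate 1 for 226 probe sets and at least 2-fold below it for 39. Of the 226, 156 (69.0%) were at least 2-fold higher in elongating pods than in bean 5 mm, against 10.1% of all. The vegetative storage protein VSPA, a temporary protein store of pods and leaves, had 355 and 561 in bean 5 mm and 279 and 1827 in bean 2 mm, and 4369 and 4502 in elongating pods. It was not called (adjusted p = 0.567), since bean 2 mm replicate 1 was below and replicate 2 above both bean 5 mm arrays. CYP76O2, a cytochrome P450 named after its values were seen, had 28.5 and 52.6 in bean 5 mm and 15.4 and 574 in bean 2 mm, and 2954 and 3009 in elongating pods. For both genes the replicates of bean 2 mm differed more than the stage means did. Their part in the falls of VLXB, LOXB1 and the jasmonate genes was not tested.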

How the data were processed

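The authors deposited 1 linear signal intensity per probe set and array. Per the submitters' processing notes, the bean 5 mm and fully grown arrays were summarised with MAS5, the Affymetrix program. The notes on the other 4 arrays name none (not given in the sources used here). Each of the 8 arrays was scaled to an equal median over 37641 soybean probe sets, and log2(scaled signal + 16) was analysed. The 33625 probe sets above background on at least 2 of 8 arrays were tested. Means of 4 stages were fitted with limma 3.58.1 in R 4.3.3 (lmFit, eBayes with a mean-variance trend) and the contrast was adjusted by Benjamini-Hochberg over all of them at 0.05. The fit was tested on simulated data. Where neither array of a stage was above background, an "at least" fold is given. It is the geometric mean of the scaled signal of the other stage over that background, without the 16, and the fit did not estimate it.

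Symbols came from the platform annotation, updated through RefSeq (names only, so no coordinates are given). They covered 8677 probe sets with 1 gene, of which 8652 matched, while 370 had several and 28594 had none. The brightest tested probe set stood for a gene. Named genes were the 15 largest rises and the 15 largest falls called with non-overlapping arrays, and up to 6 called members of each of 35 symbol lists. Seed storage, maturation, oil and regulator members are also given where not called. The comparison and lists were chosen with earlier results of these data known. Replicate numbers were not taken to pair the arrays: deviations of same-numbered arrays correlated at -0.0464 to 0.102. The number of arrays limits the precision.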

Additional observations from a re-analysis of the deposited data

Results flagged for a closer look

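Several probe sets outside the comparison were higher in bean 5 mm. Of the array's control probe sets for soybean transcripts, the one for the end of the sucrose-binding protein transcript averaged 1067 in bean 5 mm (279 and 1856), against 9.02 and 5.31 in bean 2 mm. The one for its middle averaged 247.6 in bean 5 mm (49.1 and 446), against 2.53 and 4.25 in bean 2 mm, and in both replicate 2 was far above replicate 1. The one for its start was below background on all 4 arrays, with 0.570 and 3.805 in bean 5 mm, against 0.0843 and 0.193 in bean 2 mm. A control for the end of a cytochrome P450 transcript averaged 70.2 (49.9 and 90.5) in bean 5 mm, against 16.04 and 14.9 in bean 2 mm. The control for the small-subunit ribosomal RNA averaged 94.9 in bean 5 mm (74.4 and 115), against 15.6 and 16.2 in bean 2 mm. A control for the end of a ubiquitin transcript went the other way, with 7.52 and 17.5 in bean 5 mm, against 35.7 and 38.0 in bean 2 mm. Of 23394 probe sets for 2 soybean pathogens, 4 were at least 2-fold higher in bean 5 mm on both arrays, and none was as much lower.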

How the results depend on the processing

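The 6334 calls (48.2% of them higher) became 24480 for the values as deposited, 734 higher and 23746 lower, where the median difference was -0.76 against -0.06 after scaling. With scaling to the hybridization controls 30.6% of 8881 calls were higher. The number was 9736 with only the 4 arrays compared and 11551 without the fully grown arrays, and ran from 1246 to 11518 with 1 array left out. It stayed within 1.5 times of 6334 under quantile normalization, other pseudocounts (1 and 64), other filters, and without probe sets that can match several transcripts. The replicate block gave 5750. Of 2449 values of 118 named genes under the alternatives, 2163 kept direction and call, 270 kept direction and lost the call, and 16 turned. For the values as deposited the log2 difference turned to -0.17 for KTI-3, -0.077 for ACCC-2, -0.087 for ACCB-1, -0.28 for ACCB-2, -0.37 for ACCC-3, -0.17 for IFR1, -0.49 for SS, -0.34 for MIPS, -0.008052 for CRY2B, -0.060 for PIP1-10, -0.46 for PIP2-13, -0.0825 for GASA13, -0.32 for GASA29 and -0.54 for SGF14f. Another 11 of the 118, among them SWEET24, AAT, ADR11, MYB68, UGT78K1 and CAB3, kept direction and lost the call. Averaged over every probe set of the gene it turned to 0.10 for EXP2 and 0.13 for GDH1. The cause was not tested. For 48 of the 118 genes every alternative kept direction and call, among them HPS, KTI3, FAD2-1A, LEC1-A and CKX3. Signals near background limit the storage globulins.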

Other observations

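Among 42 glutathione transferases and cytochrome P450 enzymes, 7 rose and 5 fell. The number called higher was 6 with bean 5 mm replicate 1 left out and 3 with replicate 2 left out, and 4 with bean 2 mm replicate 1 left out and 3 with replicate 2 left out. The number called lower was 2 with bean 5 mm replicate 1 left out and 3 with replicate 2 left out, and 4 with bean 2 mm replicate 1 left out and 2 with replicate 2 left out. Without probe sets that may match more than 1 transcript 3 were higher and 3 lower. GSTF7 had 344 and 366 in bean 5 mm and 90.2 and 47.3 in bean 2 mm (log2 difference 2.18 ± 0.22 SE, adjusted p = 0.000622). CYP93E1, an enzyme of soyasaponin synthesis, had 486 and 814 in bean 5 mm and 169.8 and 246 in bean 2 mm (log2 difference 1.55 ± 0.25 SE, adjusted p = 0.00458), on all 3 of its probe sets. N-26, 1 of 5 nodulin genes measured, fell to 494 and 426 in bean 5 mm, against 909 and 891 in bean 2 mm (log2 difference -0.95 ± 0.12 SE, adjusted p = 0.00183), while elongating pods had 5.99 and 6.01, not above background.

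Of 6 light harvesting and Rubisco activase genes, CAB3, a chlorophyll-binding protein, rose, with 3746 and 4292 in bean 5 mm and 1600.0 and 2325 in bean 2 mm (log2 difference 1.05 ± 0.19 SE, adjusted p = 0.00779), and lost its call without bean 5 mm replicate 2 (adjusted p = 0.0805) and for the values as deposited. RCABETA, a Rubisco activase of the same group, fell to 111 and 113 in bean 5 mm, against 149 and 184 in bean 2 mm. Its log2 difference was -0.51 ± 0.14 SE, adjusted p = 0.0412, and ran from -0.65 to -0.37 with 1 compared array left out. The call of RCABETA was lost in each of these refits and without either array of elongating pods. It was also lost under quantile normalization (log2 difference -0.47), with pseudocount 64 and with the replicate block. Of 15 aquaporins, water channels of the membrane, 3 rose and 2 fell. The number called higher was 2 with bean 5 mm replicate 1 left out and 0 with replicate 2 left out, and 2 with bean 2 mm replicate 1 left out and 0 with replicate 2 left out. The number called lower was 1 with bean 5 mm replicate 1 left out and 0 with replicate 2 left out, and 2 with bean 2 mm replicate 1 left out and 0 with replicate 2 left out, and without pod elongation replicate 1 or 2 it was 1. PIP1-10 had 1625 and 2114 in bean 5 mm and 990.3 and 1016 in bean 2 mm (log2 difference 0.88 ± 0.15 SE, adjusted p = 0.00672), lower for the values as deposited, and lost its call without replicate 2 of either stage (adjusted p = 0.069 and 0.0517).

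Among the 15 largest rises were A1, CP3 and GH, for which no role is given here. A1 had 2718 and 3719 in bean 5 mm and 339 and 247 in bean 2 mm (log2 difference 3.39 ± 0.19 SE, adjusted p = 7.6e-05). CP3 had 589 and 1216 in bean 5 mm and 91.4 and 83.7 in bean 2 mm (log2 difference 3.06 ± 0.27 SE, adjusted p = 0.000382). GH had 675 and 1167 in bean 5 mm and 60.0 and 160.4 in bean 2 mm (log2 difference 2.97 ± 0.46 SE, adjusted p = 0.00409), and 3017 and 3175 in elongating pods. The probe sets of CYP93E1, CAB3, RCABETA, PIP1-10 and CP3 are of the type that may match more than 1 transcript. Most calls are still without a gene name: of the 6334 called probe sets, 4728 (74.6%) have no single gene in the annotation.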
